A study of Rattus norvegicus with 6 samples.

Results

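Solute carriers are membrane proteins that move amino acids, sugars, ions, lipids, transmitters, vitamins and metabolites across the plasma membrane and the membranes of organelles. Some exchange one substrate for another, and others use the sodium, proton or chloride gradient to drive uptake against a concentration difference. In sensory ganglia they clear transmitters around neurons and glia, supply lactate, creatine and amino acids, and set intracellular pH and zinc. The genes described here are the rows of the deposited tables whose symbol begins with Slc or Slco followed by a digit, with Slc7a11 and Slc2a1 set aside. Of 2125 listed genes, 39 matched the symbols and 37 remained after these exceptions. They were grouped by substrate from the numbering of their families.

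RNA was sequenced from primary cultures of dorsal root ganglia, the clusters of sensory neuron cell bodies beside the spinal cord, which also hold glia, fibroblasts, vascular cells and macrophages. All cells came from Sprague Dawley rats of 120 g and grew in neurobasal medium with B-27 supplement. The 3 control libraries had no treatment, and the 3 lidocaine libraries had 5 mM of this sodium channel blocking local anaesthetic, as the hydrochloride, for 24 hours. The labels do not say whether replicates were separate animals or cultures, so the p-values speak for differences among these libraries, whose spread may be technical.

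Both tables list only genes that the authors selected as significant, each with a log2 fold change of 1.00 or more in size in the authors' deposited table. A solute carrier gene is therefore present because it differed between these libraries, and the result is its direction, size and level, not that it changed. Reads recovered in the listed genes numbered 2453051 to 3592141 per library and are a portion of the library, not its full depth. Counting error limits the precision of genes with few reads. The labels call the cells neurons, but of 10 neuronal markers only Elavl4 was listed (control 2421 to 2646 normalized reads, lidocaine 1199 to 1366), so the label could not be checked on the others. Markers of other cells were listed and lower with lidocaine. On the same deposited scale 68.6% of all genes tested below were also lower. They were 11 of 14 for macrophages (their summed normalized reads were 10576 to 11087 in control, 1244 to 1364 in lidocaine), 4 of 10 for Schwann cells (39485 to 40524 and 9165 to 9429), 2 of 6 for satellite glia (7478 to 8223 and 2160.4 to 2487), 4 of 8 for fibroblasts (92691 to 100753 and 22363 to 23061) and 8 of 10 for endothelial and mural cells (12846 to 14181 and 4596 to 4904). Pdgfrb among the last and Elavl4 had log2 fold changes above 0 once the libraries were rescaled with TMM or with the median of ratios. Under TMM all the listed macrophage, fibroblast and satellite glia markers were still called lower. Of the Schwann cell markers 3 were, and of the endothelial and mural markers 4. In such bulk samples, fewer cells of a type and less RNA per cell cannot be told apart.

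More solute carrier genes were higher than lower with lidocaine, whereas on the deposited scale, though not after rescaling, most listed genes were lower. Values are normalized reads, and a gene was tested when its mean over the 6 libraries was at least 10, which kept 34 of the 37. By limma with Benjamini-Hochberg adjustment over all 1851 genes kept and a threshold of 0.05, 33 of the 34 were called, beside 99.5% of all genes kept, a share that the authors' selection sets. The direction was not part of that selection. Of the 34, 21 were higher (61.8%) and 12 lower (35.3%), beside 30.9% higher and 68.6% lower among all genes kept. The median log2 fold change was 1.19 for the solute carriers and −1.25 for all genes kept. The groups did not overlap in 31 of the 34 (21 higher and 10 lower), beside 98.4% of all genes kept (30.8% higher and 67.6% lower). These numbers describe the family and were not tested as a list, because its members were chosen with results of these data known.

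Under rescaling of the libraries, which moved fold changes upward, most falls lost their calls and the rises kept theirs at larger sizes. Rescaling with TMM or with the median of ratios, both computed on the listed genes alone, raised the median log2 fold change of all genes kept by 1.26 and 1.17. Over all genes kept, TMM gave 631 higher and 491 lower and the median of ratios 592 higher and 550 lower, so that lower genes were no longer the majority. The 21 higher solute carriers were called higher under both. An upward shift works in favour of rises, so these kept calls do not test the rises. Falls of a size near the shift had to end near 0, so their lost calls do not set them apart from the rises. The median of the 34 went from 1.19 to 2.44 under TMM and 2.35 under the median of ratios, and single genes moved alike, Slc6a9 from 2.50 to 3.77 and Slc16a3 from 1.34 to 2.62 under TMM (log2). Fold sizes given here therefore hold for the deposited scaling. Of the 12 lower ones, 2 were still called lower under TMM, namely Slco2b1 and Slc43a3, and under the median of ratios Slc26a2 joined them. Slc44a1, Slc2a9, Slc16a4 and Slc4a1 turned above 0 under both. Of these, Slc44a1 was called higher under both and Slc2a9 under TMM. The deposited scaling is the authors' own and is used below, and which scaling is right was not tested.

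Of 395 protein-coding solute carrier genes in the RefSeq gene table (assembly GRCr8), 37 were listed (9.37%), beside 7.40% of all protein-coding genes there. Transmitter and osmolyte carriers had 7 of 31 genes listed and carriers of monocarboxylates 4 of 18. Mitochondrial carriers had 2 of 53, sugar and sugar nucleotide carriers 3 of 55, and amino acid and peptide carriers 4 of 51. Inorganic ion and metal carriers had 8 of 97, organic anion, cation and drug carriers 3 of 38, carriers of vitamins, nucleosides, heme and urea 3 of 25, and lipid and choline carriers 3 of 22. Solute carriers outside the tables were not analysed here.

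**Figure D1:**
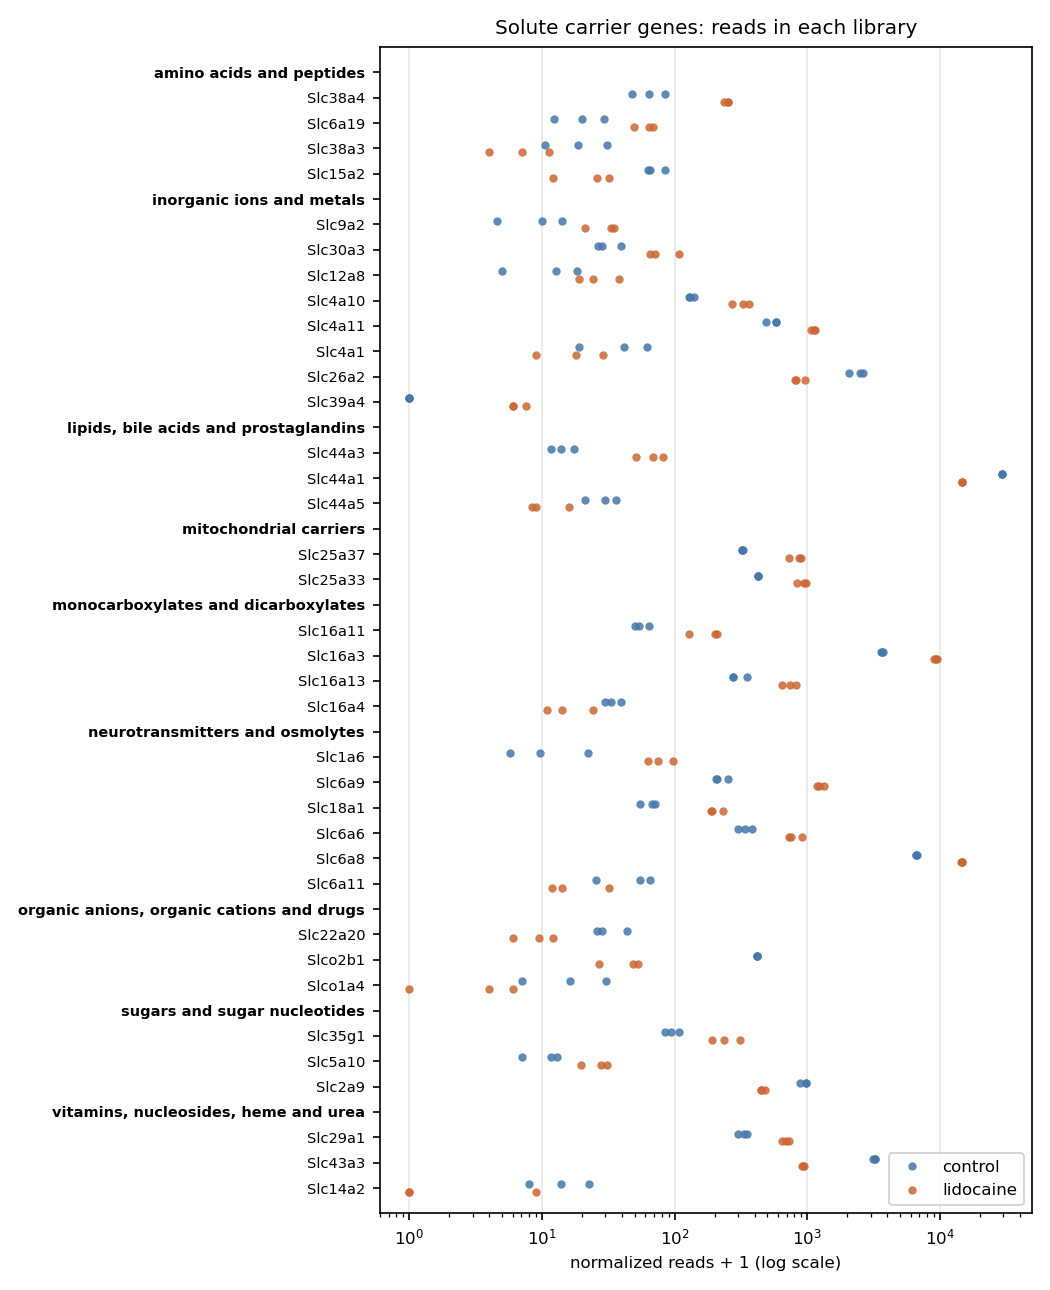
Normalized reads plus 1 (log axis) of 36 of the 37 solute carrier genes in each library, grouped by substrate. Each point is 1 library, blue for control and orange for lidocaine (3 each). Groups are apart in 31 of the 34 genes tested, and Slc44a1 has the most reads in control.

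Start-site windows from RefSeq (GRCr8, 250 bases before and 50 after a start) were found for 28 of the 37 genes. They were searched on both strands for motifs. Solute carriers are counted as genes with a match in any of their windows, whereas the percentages beside them are shares of windows. The ATF4-type motif TGATGNAAT, bound in promoters of amino acid starvation genes, was in 0 of the 28, beside 0.847% of 21851 windows of protein-coding genes. Its shorter form TGATGNAA, which holds the same letters, was also in 0, beside 3.35%. At such low shares 28 genes are too few for 0 matches to set them apart from other genes. The antioxidant response motif TGACNNNGC was in 3 (12.5% of all windows), the hypoxia motif GACGTG in 2 (6.75%), the PU.1-type motif GAGGAA in 8 (27.3%) and the TATA-type motif TATAAA in 3 (13.0%). The E-box CACGTG, a site of MYC and TFE family factors that reads the same on both strands and shares the letters ACGTG with the hypoxia motif, was in 5 of the 28, beside 7.02%. A match is a description and not a bound site. The 5 are shown because this motif had the largest share relative to all windows, with the motif in capitals and only bases upstream of the start. The windows are at chr7:11521050-11521105 (minus strand) for Slc1a6, chr5:165503004-165503059 (minus) for Slc25a33, chr6:30997280-30997335 (plus) for Slc30a3, chr18:56937013-56937053 (minus) for Slc26a2 and chr4:176496052-176496096 (minus) for Slco1a4.
Slc1a6: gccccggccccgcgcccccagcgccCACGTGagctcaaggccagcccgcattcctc
Slc25a33: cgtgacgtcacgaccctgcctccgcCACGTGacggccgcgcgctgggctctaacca
Slc30a3: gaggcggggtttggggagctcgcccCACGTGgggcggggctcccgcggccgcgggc
Slc26a2: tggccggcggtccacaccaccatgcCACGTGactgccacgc
Slco1a4: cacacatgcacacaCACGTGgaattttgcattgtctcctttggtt
Of these 5 genes, the first 3 were higher with lidocaine, Slc26a2 was lower and Slco1a4 was not tested. The upstream bases had a median GC content of 61.2% in 18 windows of higher solute carriers and 56.0% in 9 windows of lower ones, beside 58.8% and 55.2% for all called genes.

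Among the carriers of transmitters and osmolytes, uptake of glycine, glutamate, taurine and creatine was represented by genes that rose. Of 7 listed, 5 rose and 2 fell. Slc6a9, the glycine transporter of glia and of some neurons, had 208, 202 and 253 normalized reads in the control libraries and 1332, 1224 and 1190.1 in the lidocaine libraries. The groups were far apart, and the gene rose 5.65-fold (log2 fold change 2.50 ± 0.10 SE with n = 3 in each group; limma, Benjamini-Hochberg adjusted p = 7.77e-09). Slc1a6, a glutamate transporter known from Purkinje cells of the cerebellum, went from 8.72, 4.74 and 21.1 to 96.0, 61.8 and 74.3 normalized reads. Its control libraries rest on few reads and differ among themselves, yet all lie below the lidocaine libraries. The rise of 7.20-fold (log2 2.85 ± 0.47; limma, Benjamini-Hochberg adjusted p = 0.000236) was the largest on the deposited scale. With a pseudocount of 8 it was 2.20 on the log2 scale, below the 2.46 of Slc6a9, from FPKM 2.23 against 2.45, and without control replicate 2 it was 2.40 against 2.44.

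Slc18a1, which loads monoamines into secretory vesicles, had 69.7, 66.3 and 54.1 normalized reads in control and 232, 191 and 187 in lidocaine. It rose 3.17-fold (limma, Benjamini-Hochberg adjusted p = 6.3e-06). Slc6a6, the taurine transporter, an osmolyte carrier, rose 2.35-fold from 298, 336 and 379 to 911, 721 and 759 normalized reads (limma, Benjamini-Hochberg adjusted p = 4.17e-06). Creatine enters cells through Slc6a8, which was among the most abundant members. This gene rose 2.20-fold, from 6577, 6734 and 6596 to 14754, 14651 and 14384 normalized reads, and the libraries of each group were close together (limma, Benjamini-Hochberg adjusted p = 1.47e-09).

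Slc6a11, a GABA transporter of glia, fell. Slc6a11 went from 24.4, 63.9 and 54.1 to 11, 13.1 and 31.1 normalized reads. One lidocaine library lay above the lowest control library, so the groups overlapped. The fall of 2.56-fold passed (limma, Benjamini-Hochberg adjusted p = 0.0194), but not without control replicate 2 (0.0832), control replicate 3 (0.0753), lidocaine replicate 1 (0.0617) or lidocaine replicate 2 (0.0614). It did not pass under TMM, with a log2 fold change of −0.13. The glial markers above were lower in the same libraries, and their part in this fall was not tested. None of the 11 genes in the list of glutamate and GABA handling enzymes and receptors was listed.

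Carriers of lactate and related acids were mostly higher. Of 4 listed, 3 rose and 1 fell. Slc16a3, which exports lactate from glycolytic cells, had 3676, 3715 and 3603 normalized reads in control and 8979, 9395 and 9496 in lidocaine. The rise of 2.53-fold (log2 1.34 ± 0.04) was far beyond the spread between libraries (limma, Benjamini-Hochberg adjusted p = 1.38e-09). Slc16a13 and Slc16a11, members of the same family with less studied substrates, rose together. Slc16a13 went from 351, 273 and 274 to 745, 821 and 649 normalized reads, 2.47-fold higher (limma, Benjamini-Hochberg adjusted p = 4.66e-06). Slc16a11 went from 53.2, 62.7 and 49.1 to 209, 202 and 126, 3.15-fold higher (limma, Benjamini-Hochberg adjusted p = 5.42e-05). Their annotated spans overlap in the RefSeq table, and no source used here says whether counting used strand. Therefore reads of one may have been counted for the other and the pair is uncertain as 2 separate rises. Both outer neighbours of the pair were listed and were lower: Clec10a had a log2 fold change of −3.42 and Bcl6b of −1.90. Slc16a4, a less studied member, fell 2.17-fold, from 28.8, 32.0 and 38.1 to 10, 23.4 and 13.0 normalized reads (limma, Benjamini-Hochberg adjusted p = 0.0146), and did not pass without control replicate 3 (0.0543). Its direction turned under TMM (0.10) and the median of ratios (0.014).

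The amino acid and peptide carriers were split, with 2 higher and 2 lower. Slc38a4, a sodium-coupled carrier of neutral amino acids, had 62.8, 84.1 and 47.1 normalized reads in control and 233, 249.8 and 249.9 in lidocaine. It rose 3.84-fold, and the lidocaine libraries were closer together than the control libraries (log2 1.94 ± 0.20; limma, Benjamini-Hochberg adjusted p = 9.22e-06). Slc6a19, the neutral amino acid carrier of gut and kidney epithelium, went from 11.3, 28.4 and 19 to 63.0, 48.7 and 67.2, a rise of 3.10-fold (limma, Benjamini-Hochberg adjusted p = 0.00137). Slc15a2, a proton-coupled peptide carrier, went from 61.9, 63.9 and 84.2 to 25, 30.9 and 11, a fall of 3.27-fold (limma, Benjamini-Hochberg adjusted p = 0.00151; log2 −0.47 and not called under TMM). Slc38a3, a glutamine carrier of astrocytes, went from 9.59, 17.8 and 30.1 to 3.00, 10.3 and 6.02 normalized reads. The groups overlapped. It passed (2.69-fold lower; limma, Benjamini-Hochberg adjusted p = 0.0308) but not without control replicate 2 (0.0696), control replicate 3 (0.123), lidocaine replicate 1 (0.0941) or lidocaine replicate 3 (0.0524).

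Amino acid carriers can be induced by ATF4, a transcription factor that is translated when amino acids run short. Of 24 enzymes and regulators on that side of the response, 12 were listed, and each of the 12 rose. Beside this, 7.40% of all protein-coding genes were listed and 30.9% of all genes kept were higher. Their median was 1.31 on the log2 scale, 2.58 under TMM and 2.49 under the median of ratios, where all 12 were also called higher. Both rescalings moved fold changes upward, so the calls after rescaling add no support. Chac1, which degrades glutathione, rose 5.32-fold, and Sesn2, which restrains mTORC1 under stress, rose 3.18-fold (limma, Benjamini-Hochberg adjusted p = 9.95e-11 and 3.01e-10). Eif4ebp1, a repressor of cap-dependent translation, rose 3.09-fold and Mthfd2, an enzyme of mitochondrial folate metabolism, 2.06-fold (limma, Benjamini-Hochberg adjusted p = 7.41e-09 and 1.98e-08). The list was chosen with results of these data known, so the count is not independent evidence of a direction. A link between these genes and the solute carriers was not tested.

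Carriers of inorganic ions and metals were 8, of which 7 were tested. Of these, 5 rose, 1 fell and 1 did not pass. The rises included bicarbonate, proton and zinc carriers. Slc4a11, a carrier of the corneal endothelium that moves protons, had 581, 582 and 490.2 normalized reads in control and 1062, 1146 and 1117 in lidocaine (2.01-fold higher; log2 1.01 ± 0.08; limma, Benjamini-Hochberg adjusted p = 1.48e-06). With Slc44a1 it lay nearest to the authors' limit of 1 on the log2 scale. Slc4a10, a sodium-coupled bicarbonate carrier of neurons, went from 129.9, 139.7 and 128 to 271, 361 and 326, 2.38-fold higher (limma, Benjamini-Hochberg adjusted p = 9.47e-06). Slc30a3 loads zinc into synaptic vesicles. It went from 25.3, 27.2 and 38.1 to 64.0, 108 and 70.2 normalized reads, 2.59-fold higher (limma, Benjamini-Hochberg adjusted p = 0.000944).

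The other ion carriers had few reads or fell. Slc9a2, a sodium-proton exchanger, had control libraries at 3.55 to 13.1 normalized reads and lidocaine libraries at 20.1 to 33.7, a rise of 3.35-fold (limma, Benjamini-Hochberg adjusted p = 0.00599). Slc12a8, of the cation-chloride cotransporter family, went from 17.4, 11.8 and 4.01 to 37.0, 23.4 and 18.1. It passed narrowly (limma, Benjamini-Hochberg adjusted p = 0.0354) and not without control replicate 2 (0.0506), control replicate 3 (0.116), lidocaine replicate 1 (0.12) or lidocaine replicate 2 (0.0656). Slc39a4, a zinc importer, was at 0 in all control libraries and at 5.00, 6.55 and 5.02 in lidocaine, at least 1.81-fold higher against a floor of 3 counts per library; its mean was below the filter and it was not tested. Slc26a2 carries sulfate, which cartilage and other matrix-forming cells need for proteoglycans. It fell 2.77-fold, from 2049.8, 2509 and 2613 to 958, 825 and 802 normalized reads (log2 −1.47 ± 0.10; limma, Benjamini-Hochberg adjusted p = 3.65e-07), but did not pass under TMM (log2 −0.19). The fibroblast markers were lower in the same libraries, and their part in this fall was not tested. Slc4a1, the anion exchanger of red blood cells, had control libraries at 18 to 61.0 normalized reads and lidocaine libraries at 8.03 to 28.1. The groups overlapped and it did not pass (log2 −1.12 ± 0.53; limma, Benjamini-Hochberg adjusted p = 0.0646), whereas it passed without control replicate 3 (0.0205) or lidocaine replicate 2 (0.0285), with the replicate number as a block (0.0164) and with a pseudocount of 8 (0.0366).

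Both mitochondrial carriers rose. Slc25a37, the mitoferrin that brings iron into mitochondria for heme and iron-sulfur clusters, had 323, 324 and 322 normalized reads in control and 870.0, 895 and 732 in lidocaine (2.56-fold higher; log2 1.36 ± 0.09; limma, Benjamini-Hochberg adjusted p = 3.09e-07). Slc25a33, a carrier of pyrimidine nucleotides whose window is printed above, went from 422, 423 and 421 to 842, 969 and 936, 2.16-fold higher (limma, Benjamini-Hochberg adjusted p = 3.56e-07). In each, the lidocaine libraries were farther apart than the control libraries. Among 16 genes of iron and heme handling, 6 were listed, of which 1 rose and 5 fell. The heme-degrading enzyme Hmox1 rose 6.28-fold, while ceruloplasmin (Cp) fell 5.03-fold and the metalloreductase Steap4 10.96-fold (limma, Benjamini-Hochberg adjusted p = 7.5e-11, 7.09e-10 and 2.38e-08). Cd163, a hemoglobin receptor of macrophages, had a control mean of 145 ± 33.1 normalized reads and a lidocaine mean of 2.56 ± 2.37 (SD, 3 libraries each; limma, Benjamini-Hochberg adjusted p = 9.43e-06). Hpx, also lower, changed sign under both rescalings and was not called higher.

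Choline carriers, which supply the head group of membrane phospholipids, moved in opposite directions on the deposited scale. Slc44a1, a choline transporter, had 29202, 29407 and 29529 normalized reads in control and 14631, 14578 and 14542 in lidocaine. It had the most reads of the members in control and fell 2.01-fold with little spread (log2 −1.01 ± 0.03; limma, Benjamini-Hochberg adjusted p = 1.28e-09). Its direction turned under TMM (0.26) and the median of ratios (0.17), and it was called higher under both (limma, Benjamini-Hochberg adjusted p = 5.51e-05 and 0.00133). Slc44a3, a related family member, went from 16.6, 10.7 and 13.0 to 68.0, 50.5 and 81.3, 4.67-fold higher (limma, Benjamini-Hochberg adjusted p = 6.13e-05). Slc44a5 went from 34.9, 20.1 and 29.1 to 8, 7.49 and 15.1, 2.65-fold lower (limma, Benjamini-Hochberg adjusted p = 0.00691; log2 −0.21 and not called under TMM). No fatty acid transport protein of the Slc27 family was listed. Of 18 other genes of fatty acid uptake and handling 4 were listed, 3 higher and 1 lower. Acsl3, which activates long-chain fatty acids, rose 2.41-fold, the prostaglandin synthase Ptgs2 2.89-fold and the fatty acid binding protein Fabp4 2.96-fold, while the scavenger receptor Cd36 fell 11.1-fold (limma, Benjamini-Hochberg adjusted p = 8.33e-09, 4.93e-08, 0.000116 and 0.000125).

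In the sugar families, Slc2a9 by its substrate is mainly a urate carrier, and the 3 listed genes were 2 higher and 1 lower. Slc2a9 went from 888, 981 and 979 to 444, 447 and 482 normalized reads (2.07-fold lower; log2 −1.05 ± 0.08; limma, Benjamini-Hochberg adjusted p = 4.91e-07). It had the opposite sign under TMM (0.22), where it was called higher (limma, Benjamini-Hochberg adjusted p = 0.0226), and under the median of ratios (0.13), where it was not called. Slc35g1, of the family named for nucleotide sugar carriers, went from 92.4, 107 and 84.2 to 309, 234.8 and 191, 2.54-fold higher (limma, Benjamini-Hochberg adjusted p = 7.9e-05). Slc5a10, a sodium-coupled sugar carrier of the kidney, had control libraries at 6.10 to 12 normalized reads and lidocaine libraries at 18.7 to 30.1 (2.52-fold higher; limma, Benjamini-Hochberg adjusted p = 0.00844). Its span overlaps that of Fam83g in the RefSeq table, a listed gene with a log2 fold change of 1.73, so its reads are uncertain.

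The largest fall was in the carriers of organic anions. Slco2b1, which takes up steroid sulfates and many drugs, had 417, 413 and 419 normalized reads in control and 26.0, 47.7 and 52.2 in lidocaine. It fell 10.1-fold (log2 −3.34 ± 0.24; limma, Benjamini-Hochberg adjusted p = 4.54e-07), the only solute carrier of the 34 with a fall of at least 4-fold, a size that 21.7% of all genes kept reached. It was still called lower under TMM (log2 −2.08) and the median of ratios (−2.17). The macrophage markers fell in the same libraries, and their part in this fall was not tested. Slc22a20, an organic anion carrier known from mouse olfactory mucosa, went from 42.7, 27.2 and 25.1 to 5.00, 8.42 and 11, 3.62-fold lower (limma, Benjamini-Hochberg adjusted p = 0.00155; log2 −0.67 and not called under TMM). Slco1a4, a carrier of the rodent blood-brain barrier endothelium, had 29.6, 15.4 and 6.01 normalized reads in control and 3.00, 0 and 5.02 in lidocaine, and was below the filter. Endothelial and mural markers were lower in the same libraries on the deposited scale, and 4 of the 8 listed also under TMM. The part of these markers was not tested.

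Nucleoside and nucleobase carriers moved apart. Slc29a1, which equilibrates adenosine across the membrane, went from 299, 333 and 353 to 644, 694 and 729 normalized reads (2.10-fold higher; log2 1.07 ± 0.09; limma, Benjamini-Hochberg adjusted p = 1.99e-06). Slc43a3, a carrier of purine nucleobases, went from 3132, 3249.7 and 3229 to 919, 938 and 928 normalized reads. The fall of 3.45-fold was large beside the spread (log2 −1.79 ± 0.05; limma, Benjamini-Hochberg adjusted p = 7.09e-10) and was still called, at a smaller size, under TMM (−0.51) and the median of ratios (−0.60). Slc14a2, a urea carrier of the kidney, had 21.8, 13.0 and 7.02 normalized reads in control and 8, 0 and 0 in lidocaine, and was below the filter.

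**Figure D2:**
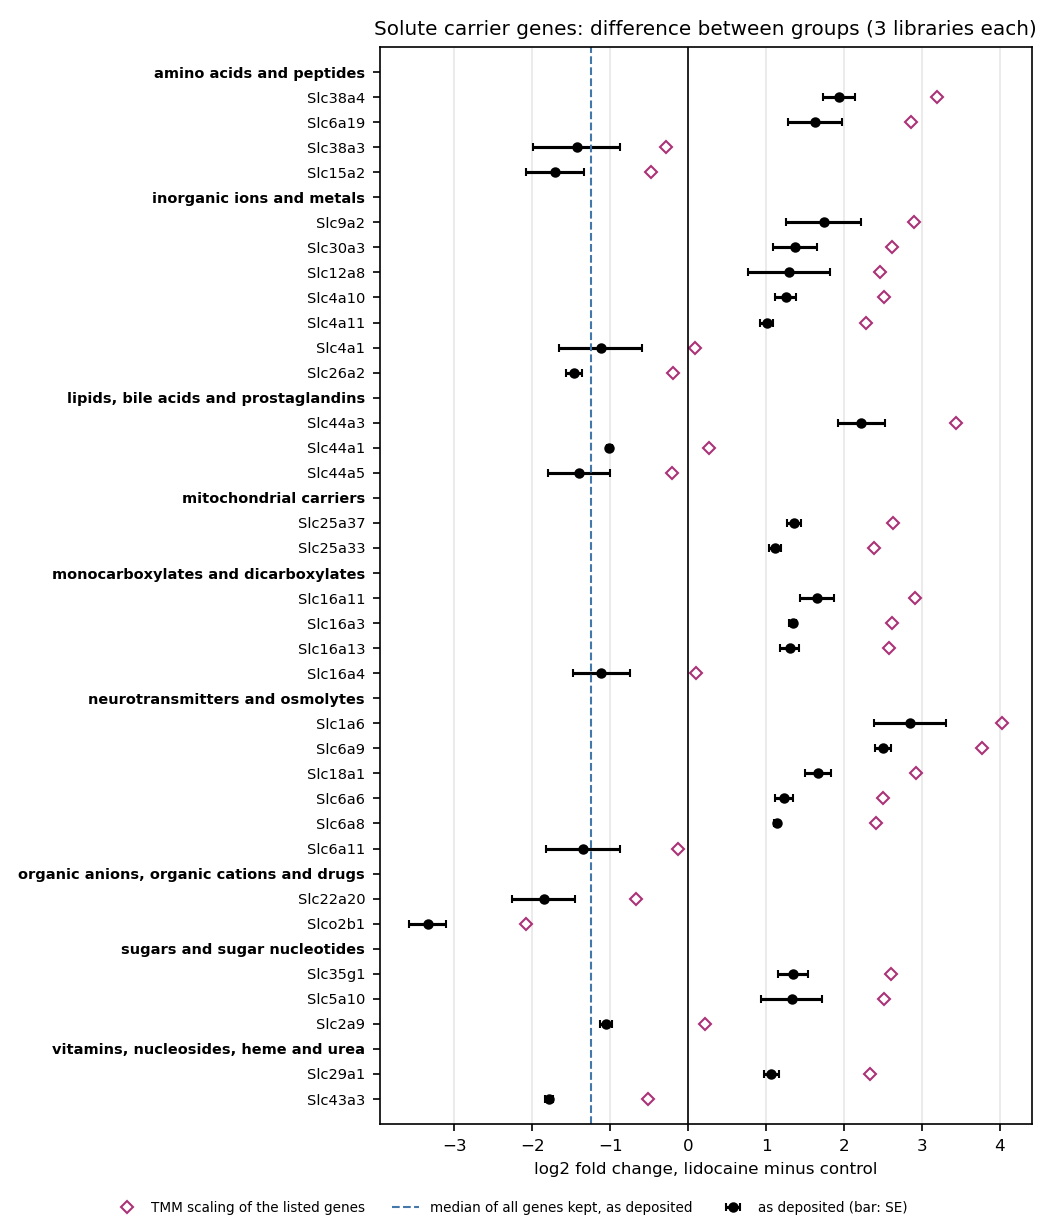
Log2 fold change (lidocaine minus control, horizontal axis) of 33 of the 34 tested solute carrier genes by substrate class. Black points with bars are the deposited scaling with its SE (3 libraries per group), open diamonds the values after TMM scaling, and the dashed line the median of all genes kept (−1.25). The 21 rises lie right of 0 under both scalings, and Slc44a1, Slc2a9, Slc16a4 and Slc4a1 cross 0.

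Levels per gene length changed their order. FPKM values scale fragments by gene length and library size, so they allow genes to be compared. In control, Slc44a1 was highest at 112 ± 0.984 FPKM, followed by Slc16a3 at 35.0 ± 0.538 and Slc6a8 at 34.7 ± 0.526, which did not differ beyond their spread. Slc43a3 at 24.0 ± 0.548 and Slc26a2 at 17 ± 2.2 came next (SD, n = 3). In lidocaine the order was Slc16a3 at 90.1 ± 2.50, Slc6a8 at 77.6 ± 1.26 and Slc44a1 at 56.5 ± 0.338 FPKM. Slc25a33 at 13.8 ± 0.990 and Slc25a37 at 11 ± 1.2 followed, and Slc43a3 at 7.06 ± 0.0835 was ninth. The 5 highest members held 85.1% of the summed FPKM of the 37 genes in control and 78.6% in lidocaine. The median member had 0.50 FPKM in control and 0.953 in lidocaine, whereas the median listed gene had 1.29 and 0.688. In 18 of the 37 genes the mean was under 1 FPKM in both groups.

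**Figure D3:**
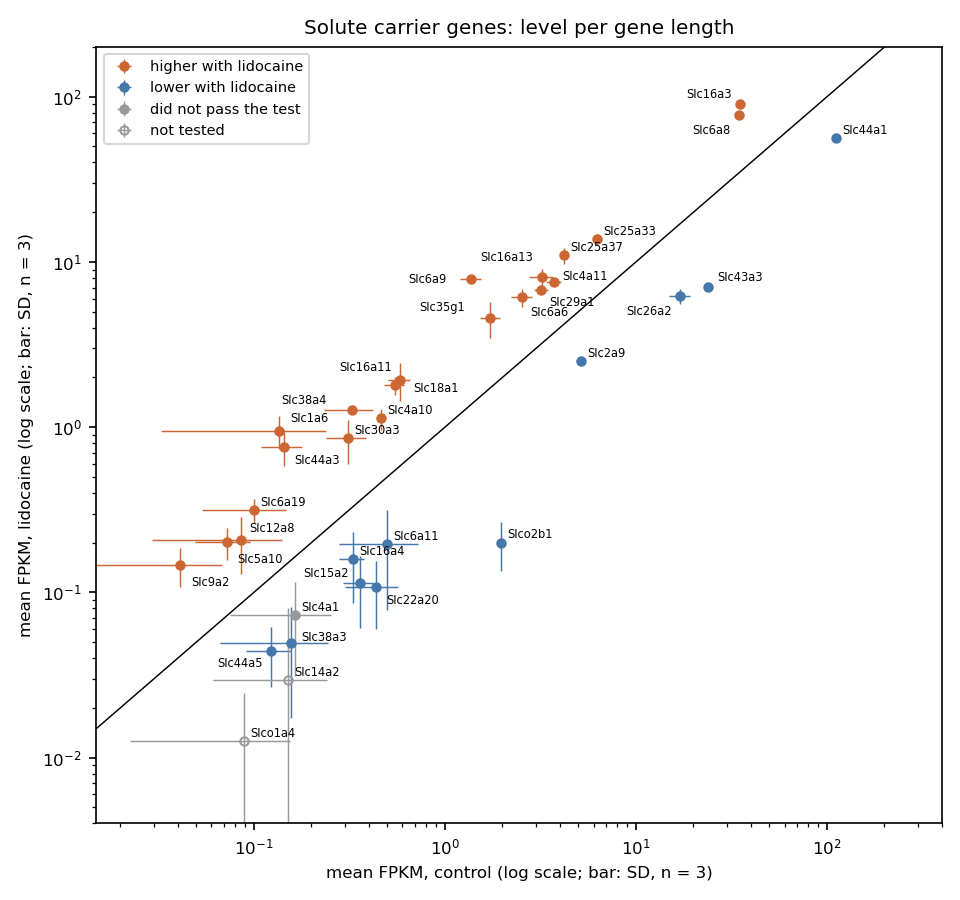
Mean FPKM in control (horizontal) against lidocaine (vertical), both on log axes, for 35 solute carrier genes. Slc39a4, at 0 in control, is left out. Bars are SD over 3 libraries, with lower ends held above 0 or cut by the frame, and the line marks equal levels. Slc16a3 and Slc6a8 rise above Slc44a1 in lidocaine.

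On the deposited scale, rises and falls nearly balanced in summed reads but not in summed FPKM. The 21 higher genes summed to 13169 to 13479 normalized reads in the control libraries and 31431 to 32101 in the lidocaine libraries. The 12 lower genes summed to 36013 to 37200.3 in control and 16935 to 17092 in lidocaine. All 37 together summed to 49366 to 50469 and 48385 to 49116 normalized reads, so that the groups lay close and did not overlap. Their summed FPKM was 257 to 265 in control and 312 to 321 in lidocaine. Slc44a1 alone made up most of the lower sum, and Slc6a8 and Slc16a3 most of the higher sum.

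On the deposited scale, every tested gene of the ABC transporters, pumps and aquaporins was lower, the aquaporins not so under TMM. Among all genes kept 68.6% were lower on that scale, so these small counts do not by themselves set the families apart. All 6 listed of 54 ABC transporter genes, which use ATP to move lipids and other substrates, fell (median log2 fold change −2.65). Abca8a, a lipid transporter, had a control mean of 21942 ± 1648 normalized reads and a lidocaine mean of 837 ± 75.7 (SD, 3 libraries each), and Abca9 and Abca8 fell 15.1-fold and 8.65-fold, while Abcc9, also one of the mural cell markers, fell 3.44-fold. Of 17 sodium-potassium and calcium pump genes 4 were listed and the 3 tested fell (median −2.72). The sodium-potassium pump subunit Atp1b2 fell 6.25-fold and the calcium pump Atp2b4 6.57-fold. The 3 tested of 13 aquaporin genes, Aqp1, Aqp3 and Aqp12a, fell 2.05-fold, 2.18-fold and 2.37-fold, but all changed sign under TMM, where 1 of the 3 was called higher, and Aqp1 changed sign under the median of ratios without passing. The ABC transporters and pumps kept their direction under both rescalings. Of 21 Mfsd carrier genes only Mfsd6l was listed, and it rose 2.40-fold, with means of 9.39 ± 2.30 and 24.5 ± 8.09 normalized reads (SD, 3 libraries each). Of 15 chaperones and partners of carriers, Wnk2, a kinase of the family that regulates cation-chloride cotransporters, rose 2.08-fold. Every gene named here with a fold passed (limma, Benjamini-Hochberg adjusted p of 0.0379 for Aqp3 and lower for the others). The difference in direction between the families was not tested.

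**Figure D4:**
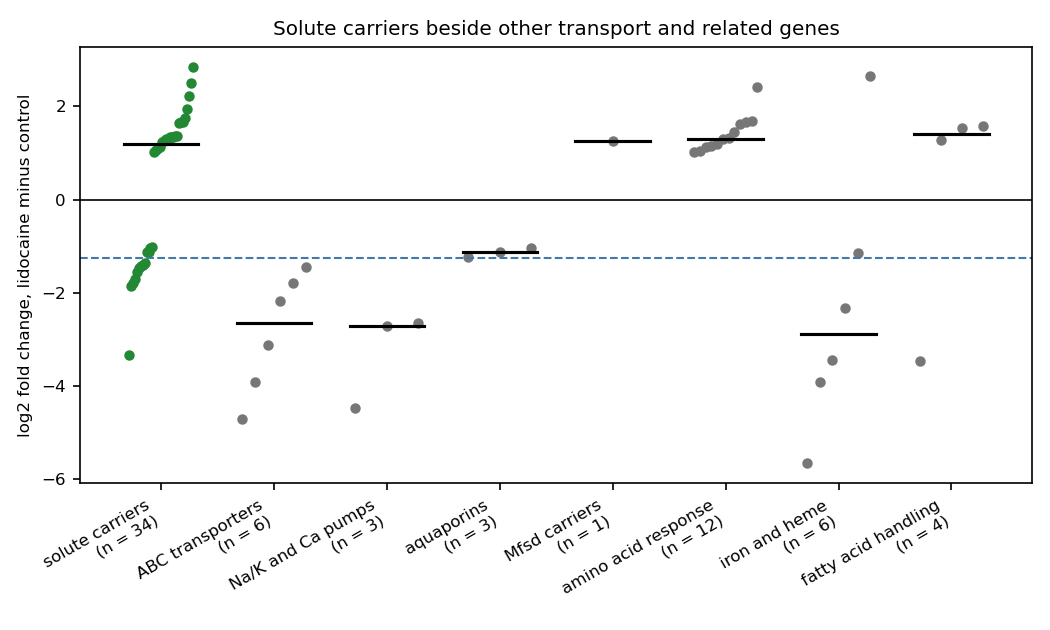
Log2 fold change (lidocaine minus control) of each tested gene in the solute carriers (green, n = 34) and in other transport and related gene lists (grey), sorted within each list. Black lines are list medians and the dashed line is the median of all genes kept. Solute carriers lie on both sides of 0, while ABC transporters, pumps and aquaporins lie below it, the aquaporins turning above 0 under TMM.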

How the data were processed

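Sequencing used 6 libraries of total RNA, 3 control and 3 lidocaine, grouped by titles and treatment labels. Per the submitters' processing notes, the tools were Bowtie 0.12.2 and DESeq2, on rn6 (Rnor_6.0), with no role given. Which tool counted reads, and whether by strand, is not given in those notes. The authors deposited log2 values of normalized reads plus 1, and FPKM values, for the same 2125 selected genes. In the authors' deposited table each gene also has a log2 fold change and a p-value of at most 0.0499. Undoing the log2 step gave whole reads for 100% of 12750 values (tolerance 0.02 reads), after division by 1 factor per library (0.872 to 1.18).

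The deposited log2 values entered limma 3.58.1 in R 4.3.3 (moderated two-sided test with a variance trend, no replicate block), for genes whose mean reached 10 normalized reads. Fold changes come from log2(normalized reads + 1) and understate changes of low genes. Count models were not run on the recovered reads, which cover the selected genes alone. The smallest p of an exact permutation test here is 0.1, so calls rest on the spread that limma shares across genes. Replicates did not agree within sampling noise (chi-square per degree of freedom 3.26 to 8.38). The members, substrate classes and lists were chosen with earlier results of these data known. Every member is named except 1, whose values are not reported here; of the others, those averaging 100 normalized reads or more in their higher group were to be given in every library, up to 4 per class, and values of others were added. From other lists, up to 4 genes with the smallest adjusted p were named, with a few left out. RefSeq windows, gene order and overlaps (GRCr8) differ in build from the files. Alternatives covered the pseudocount, filter, scaling, FPKM, variance trend, replicate block and each library left out.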

Additional observations from a re-analysis of the deposited data

How the results depend on the processing

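The number of higher solute carriers was 21 and stayed within 14 to 23 under every alternative, and within 20 to 21 with 1 library left out. The number of lower ones was 12, and 10 to 12 with 1 library left out, but 2 under TMM, 3 under the median of ratios and 5 with the filter at a mean of 100 normalized reads, where fewer genes were tested. The median log2 fold change of 1.19 was 1.12 to 1.19 with 1 library left out, 1.08 with a pseudocount of 8, 1.14 without a filter, 1.24 with the filter at 100, 1.04 from FPKM (pseudocount 0.1), 2.44 under TMM and 2.35 under the median of ratios. Over all genes kept, 381 were higher and 687 lower with the filter at 100, where fewer were tested, 491 were lower under TMM and 550 under the median of ratios, so that 43.8% and 48.2% of calls were lower; with 1 library left out 558 to 564 were higher and 1204 to 1248 lower. The direction turned under TMM and the median of ratios for Slc44a1 (0.26 and 0.17), Slc2a9 (0.22 and 0.13), Slc16a4 (0.10 and 0.014) and Slc4a1 (0.092 and 0.0070). Both methods were computed on the listed genes, which by construction centres them. This moved fold changes upward, so the kept calls of the rises under these methods add no support. With the replicate number as a block the counts were 21 and 13 for solute carriers and 574 and 1268 for all genes. Deviations from the group means correlated at −0.03, 0.01 and 0.06 between same-numbered libraries, and at −0.06 to 0.05 between the others. With 3 libraries per group these values cannot settle whether the numbers pair the libraries. From FPKM the log2 fold changes of low genes were smaller, 0.81 for Slc9a2, −0.74 for Slc38a3 and −0.63 for Slc44a5, with the same calls. Without the variance trend Slc12a8 did not pass (limma, Benjamini-Hochberg adjusted p = 0.0612). Few reads limit Slc39a4, Slco1a4 and Slc14a2, which were not tested, and the calls of Slc6a11, Slc38a3, Slc12a8 and Slc16a4, which each depended on single libraries.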

Other observations

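The authors' deposited table of FPKM holds a lidocaine group value that departs from the mean of the 3 libraries. For Slco2b1 that value was 1.32 FPKM against a mean of 0.20, a ratio of 6.61, while for Slc39a4 the ratio was 1.00. By the authors' group values some called falls were higher in lidocaine than in control. Among them were Slc44a1 (155 against 112 FPKM), Slc43a3 (27.2 against 24.0) and Slc2a9 (6.91 against 5.14). Others stayed lower, such as Slco2b1 (1.32 against 1.97) and Slc15a2 (0.272 against 0.358). The lidocaine group value entered no other comparison.

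In 9 of the 34 tested solute carriers (26.5%) the SD over the control libraries was below the square root of the mean, beside 27.2% of all genes kept. In lidocaine this was so in 5 (14.7%), beside 23.8%. Slc25a33 and Slc25a37 had control SDs of 0.805 and 1.32 normalized reads at means of 422 and 323. Across the listed genes as a whole, replicates differed by more than sampling noise (chi-square per degree of freedom 3.26 to 8.38).

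Besides the overlapping pair of Slc16a11 and Slc16a13, 5 of the 7 solute carriers whose spans overlap another protein-coding gene in the RefSeq table do so with Cnn3 (Slc44a3), Csnk1d (Slc16a3), Ccdc24 (Slc6a9), an olfactory receptor gene (Slco2b1) and Fam83g (Slc5a10). Of these 5 partners only Fam83g was listed.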
